A study of Drosophila melanogaster with 3 samples.

Results

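Among the α/β Kenyon cells (KCs) of the fly brain, a small set carried transcripts of rotund (rn), a zinc finger transcription factor, together with a few transcripts of CNMaR, the receptor for the neuropeptide CNMamide, and of the uncharacterized gene CG43795. These cells, called rn+ α/β cells here, numbered 299 of 2805 α/β cells, of 8321 KCs and of 15144 cells that passed the filter in 3 single-cell libraries. A cell passed with at least 1000 UMIs (unique molecular identifiers, each marking 1 captured transcript) and at most 20% mitochondrial UMIs. It was a KC when prt, ey, Dop1R2, mub, sNPF and dac made up at least 0.5% of its UMIs. It was α/β when the UMIs of crb, SP1173, Lgr1, rk, Pde6 and CG43759 summed to at least 3 and to more than 2 times the γ sum (ab, Imp, GstD11, CG32392, CAH2) and the α′/β′ sum (CG8641, DAT, Fili, Lac). An α/β cell with at least 2 UMIs summed over rn, CNMaR and CG43795 was a member. These counts chose the cells, so every level of those 24 genes below is a description.

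KCs are the intrinsic neurons of the mushroom body, the center for olfactory memory in the insect brain. They are cholinergic, and each class sends its axons into its own lobes: γ cells are born first, α′/β′ cells next and α/β cells last. Within α/β, pioneer, surface and core cells are known from their birth order and place in the lobe, and the rn+ cells were not assigned to any of these. rn is known from patterning of the leg and from the identity of olfactory receptor neurons, and CNMamide as a gut signal of a lack of essential amino acids. Serotonin reaches the lobes from a few identified neurons and is taken back up by the serotonin transporter SerT (dSERT), which is made in the serotonergic neurons themselves. The study asked how losing or blocking this transporter alters transcription in KCs.

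All flies carried Mef2(P247)-gal4 driving a nuclear GFP, a driver that marks α/β and γ cells more than α′/β′ cells, and the third chromosome of a wild-caught DGRP strain, which differed between lines. The first library pooled homozygous dSERT16 flies, which have a P-element excision in the gene, and dSERT4 flies, their matched control, on the day of eclosion (day 0). The second pooled dSERT-TMKO flies, with a CRISPR deletion in the first and second transmembrane domains, and wild-type (WT) flies at day 0. The third pooled dSERT-TMKO and WT flies with WT flies fed citalopram (CIT) or vehicle (VEH) as adults, all at day 4 to 6. The CIT and VEH flies were kept from eclosion on agar with sucrose and blue dye, in place of the standard cornmeal food. They also carried a second chromosome from a DGRP strain. Values are given in that order throughout. Single cells were not assigned to lines, so each level is an average over the genotypes of a pool, each group is 1 library, and no test between groups was possible. Between the third library and the others, age, genotype mix, drug, food and library cannot be told apart.

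The rn+ α/β cells numbered 134, 50 and 115, or 14.6% (exact 95% interval 12.4 to 17.1), 8.29% (6.22 to 10.8) and 8.94% (7.44 to 10.6) of α/β cells. The share of α/β cells was higher in the dSERT4/dSERT16 pool than in the others by more than the counting error, and it stayed the highest in each alternative run. Of all KCs they were 4.40% (3.70 to 5.19), 2.14% (1.59 to 2.81) and 3.91% (3.24 to 4.68), where the intervals of the first and the third library overlapped. With every cell thinned to 1000 UMIs the shares were 10.5%, 5.02% and 5.75%. KCs made up 92.3%, 26.4% and 98.2% of the cells that passed. The 3 sets held 618512, 374392 and 915890 UMIs, with medians of 4394, 6809 and 7944 UMIs per cell (other α/β cells 3383, 5701 and 6061). A level is given in CPM, counts per 1000000 UMIs of the class. All intervals cover counting error only.

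The second library held more RNA of other cells. Summed over 7 glial markers, rn+ α/β cells had 113, 1640.0 and 25.1 CPM, and other α/β cells 170, 1562 and 40.4 CPM, so the glial level differed between libraries more than between the classes. The defining glial factor repo gave 0, 11 and 0 UMIs in the rn+ cells. Muscle and photoreceptor markers were at 0 UMIs in all 3 sets. Within the second set, 1 cell of 26479 UMIs carried all 52 UMIs of the vesicular glutamate transporter VGlut, 18 of the 31 UMIs of CNMaR and only 1 UMI of rn. In the same set 2 cells had at least 0.5% of their UMIs from glial markers, and 4 cells in all libraries (3 in the second, 1 in the third) were called as doublets by Scrublet. Together these are called mixed cells below, and some of the values that they move are given with and without them. Unless stated, values include them. As an example, rn in the second library was at 2391 CPM with them and 2740 CPM without. Libraries shared 22 barcodes over all pairs, and none of them belonged to a rn+ α/β cell in both.

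The defining gene was rn. Its level was 4343, 2391 and 2592 CPM in rn+ cells, from 2686, 895 and 2374 UMIs, against 0.336, 0.608 and 0.565 CPM in other α/β cells. At least 1 rn UMI was seen in 134 of 134, 48 of 50 and 113 of 115 members, and rn gave 93.9%, 87.4% and 89.4% of the UMIs of the 3 marker genes. Among the other KC classes, γ cells had 6.01, 3.04 and 0.498 CPM and α′/β′ cells 216, 156 and 217 CPM, so an intermediate level of rn lay outside the α/β class.

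CG43795 was at 251, 262 and 266 CPM in rn+ cells, and its 155, 98 and 244 UMIs came from 61, 31 and 86 cells. Other α/β cells held 0, 1 and 2 UMIs of it, and α′/β′ cells none. CNMaR was far sparser. It was at 30.7, 82.8 and 41.5 CPM in rn+ cells against 2.35, 1.22 and 3.53 CPM in other α/β cells, and its UMIs came from 15, 7 and 23 cells. The share of cells with a CNMaR UMI was 11.2%, 14% and 20%, and 0.895%, 0.723% and 2.13% in other α/β cells. Thinned to 1000 UMIs per cell, these shares became 2.24%, 0% and 3.48% and 0.256%, 0.181% and 0.598%. Without doublets and cells with glial or other transmitter markers the CNMaR level was 30.7, 39.5 and 42.4 CPM. Transcripts of rn thus marked nearly every cell, and those of CNMaR a minority. On the BDGP6 (dm6) assembly these genes lie apart: rn (FBgn0267337, chromosome 3R, 7272617 to 7309629, minus strand), CNMaR (FBgn0053696, chromosome 3L, 9644109 to 9659433, plus strand) and CG43795 (FBgn0264339, chromosome 2R, 23444137 to 23491997, plus strand).

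**Figure D1:**
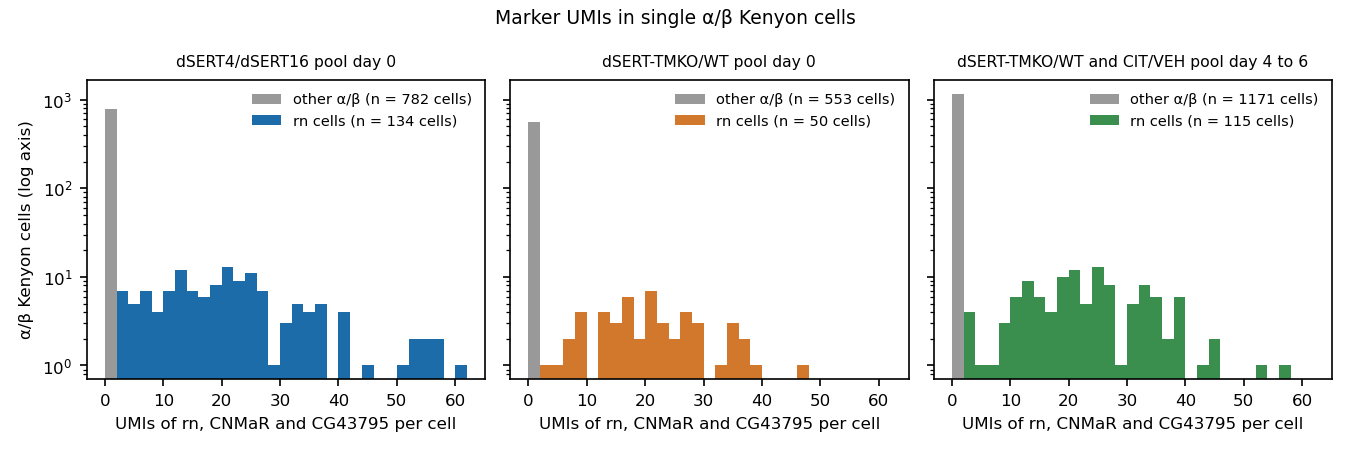
Cells (log axis) by their UMIs of rn, CNMaR and CG43795, in bins of 2 UMIs, for rn+ α/β cells (colored) and other α/β cells (grey) of each library. The grey bar holds cells with 0 or 1 UMI, and the colored cells spread around medians of 20, 20 and 22 UMIs up to 60, 46 and 57.

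The marker sum separated the α/β cells with few cells near the limit. Its median over rn+ cells was 20, 20 and 22 UMIs, and 7, 1 and 4 cells had only 2 or 3. Just outside the limit, 8, 7 and 31 other α/β cells had exactly 1 marker UMI, and 774, 546 and 1140 had 0. A further 8, 9 and 8 KCs passed both minimums but were not members because their γ or α′/β′ sum was too close to the α/β sum. The rn+ cells had median α/β sums of 13, 14.5 and 16 UMIs, with 14, 3 and 1 of them at 3 to 5.

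By pan-neuronal genes that the rule did not use, the rn+ cells were neurons. Mef2, the transcription factor behind the sorting driver, was at 2016, 1749.5 and 1625 CPM, against 2065, 2001 and 1817 in other α/β cells. Cells were sorted with that driver and had to pass the KC minimum, so the Mef2 level is a description and no separate support. The 4 pan-neuronal genes elav, nSyb, Syt1 and brp summed to 5892, 6314 and 7297 CPM. The cholinergic gene VAChT, the vesicular acetylcholine transporter, stood at 920.0, 839 and 665 CPM (other α/β 933, 975 and 659.7). Gad1, the enzyme for GABA, was at 0 UMIs in each library, but markers of other transmitters were not all absent. A list of 8 such markers summed to 61.4, 219 and 73.2 CPM (other α/β 74.5, 105.5 and 73.4). The second of these sums includes the 52 UMIs of VGlut. Only 1 gene of the list reached 50 CPM in either class in every library. Its log2 ratios over other α/β cells were -0.05, 0.11 and -0.003.

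The α/β sum was itself lower in these cells, at 3002, 2118 and 2349 CPM against 4012, 2699 and 3445 in other α/β cells. rk, the receptor for the hormone bursicon, was at 124, 85.5 and 109 CPM against 329, 234 and 293 CPM in other α/β cells, and Pde6, a phosphodiesterase, at 141, 168 and 226 against 689, 602 and 874 CPM. prt, a vesicular transporter made in the mushroom body, went the other way, with 1989, 1330.2 and 1596 against 539.9, 436 and 436 CPM. sNPF, the short neuropeptide F precursor that KCs release, was at 2795, 3633 and 3976 against 1684, 1854 and 1830.0 CPM, and γ cells had 3651, 2756 and 3042 CPM. For each of the 4 genes, rn+ and other α/β cells kept their order in every library.

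**Figure D2:**
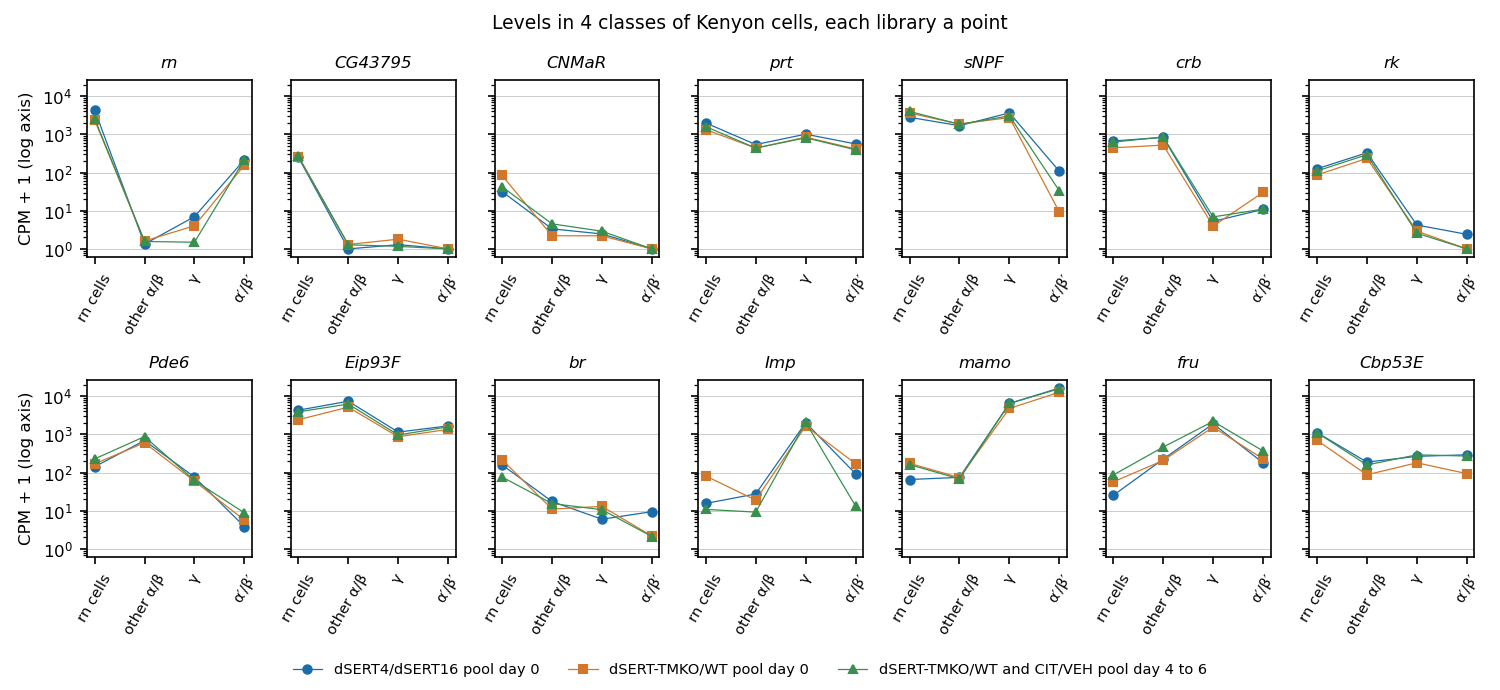
CPM + 1 (log axis) of 14 genes in rn+ α/β cells (written "rn cells"), other α/β, γ and α′/β′ KCs, with 1 point per library and class, joined within a library. rn and CG43795 stand above 200 CPM in rn+ cells, and rn is also at 216, 156 and 217 CPM in α′/β′ cells. Imp and mamo are highest in γ or α′/β′ cells.

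Temporal identity genes set apart KCs born at different times. Imp, an RNA-binding protein of early-born KCs and a gene of the γ sum, was at 14.6, 80.1 and 9.83 CPM against 2017, 1652 and 2057 in γ cells. In the second library a single cell carried 14 of 30 UMIs, and in the third a single cell carried 9 of 9. mamo, a transcription factor of γ and α′/β′ cells, was at 64.7, 174 and 160.5 CPM. It was at 6433, 4776 and 6485 CPM in γ cells and 16321, 12668 and 15692 CPM in α′/β′ cells, far above the rn+ cells. Without doublets and cells with other markers Imp was at 14.6, 3.29 and 0 CPM and mamo at 64.7, 3.29 and 13.4 CPM. Eip93F, an ecdysone-induced factor of late-born neurons, was at 4289, 2419.9 and 3885 CPM, between other α/β cells (7374, 5144 and 6212) and γ cells (1145, 864 and 963). chinmo, a BTB zinc finger factor of the temporal series, was at 1004, 804 and 936 CPM (other α/β 760.1, 720.4 and 656). For both genes the order of the 4 classes was the same in every library, and chinmo was highest in α′/β′ cells (2013, 1466 and 1630.2 CPM).

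A broader comparison set the rn+ cells against the other α/β cells of the same library. Of 2269 genes at 50 CPM or more in either class in every library, the 24 rule genes left out, 47 (2.07%) were at least 2-fold higher in rn+ cells in all 3 libraries and 35 (1.54%) at least 2-fold lower, on the log2(CPM + 10) scale. The median log2 ratio over all tested genes was 0.02, -0.01 and 0.01. Because the cells were picked by genes that lead a cluster of these data, the counts describe the cells and test nothing. Over all alternatives run, leaving out each library among them, 33 to 63 genes were higher and 27 to 47 lower.

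**Figure D3:**
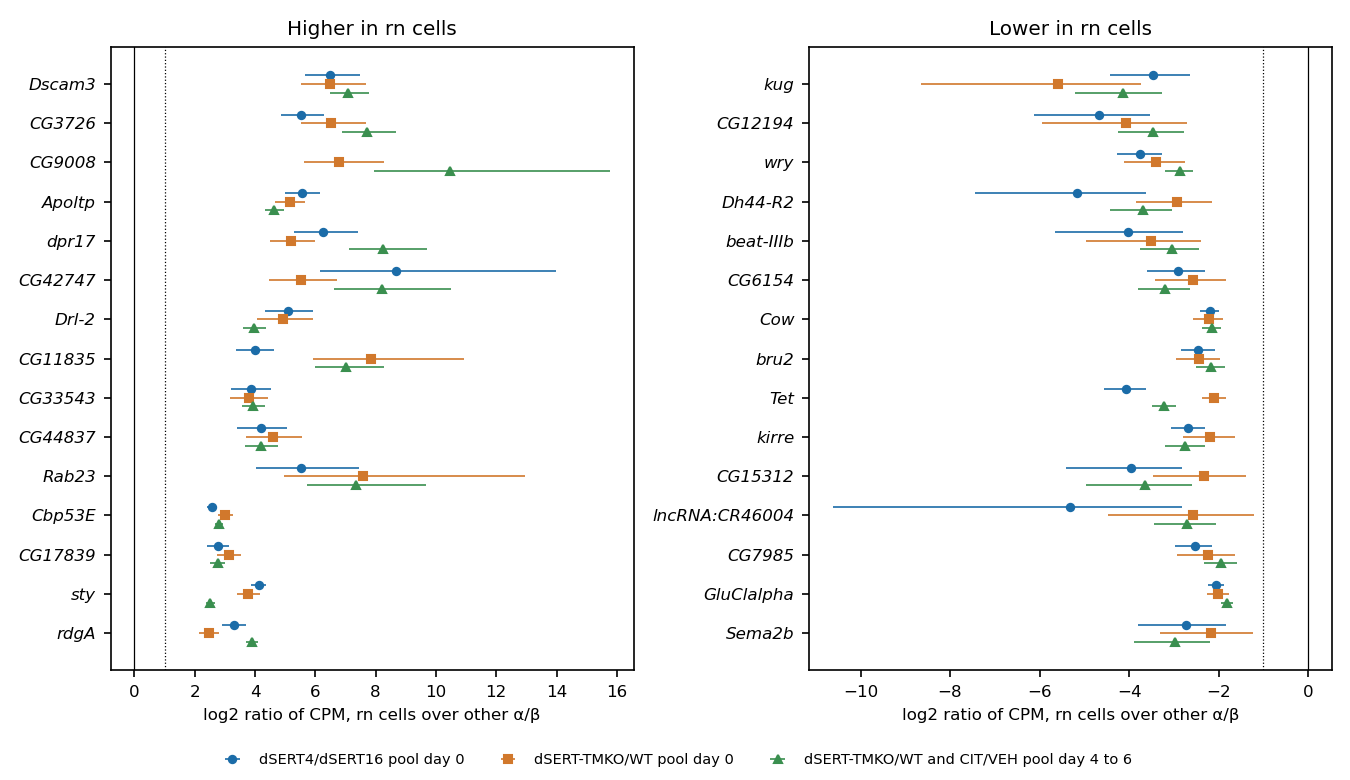
The log2 ratio of CPM in rn+ cells over other α/β cells for the 15 genes ranked first in each direction, with exact 95% intervals and 1 point per library; the dotted line marks 2-fold. CG9008 has no point for the first library, where other α/β cells held 0 UMIs; all other points lie beyond the dotted line.

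Several of the genes ranked first among those higher encode cell surface proteins. Dscam3, an immunoglobulin family adhesion protein, was at 365, 248 and 426 CPM in rn+ cells (226, 93 and 390 UMIs) and 4.03, 2.74 and 3.11 CPM in other α/β cells. Its log2 ratios were 6.50 (5.67 to 7.48), 6.50 (5.52 to 7.68) and 7.10 (6.48 to 7.79). The counting intervals of the summed levels did not overlap between the classes in any library. In single cells, a Dscam3 UMI was seen in 61.2%, 70% and 84.3% of rn+ cells and 0.895%, 0.904% and 1.45% of other α/β cells. Of its paralogs Dscam2 went the other way, at 289, 291 and 345 against 1079, 911 and 1028 CPM, while Dscam1, looked up after these values were seen, was at 213, 286 and 252 against 225, 225 and 251 CPM and was not called.

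dpr17, of the Dpr family whose proteins bind DIP partners at synapses, was at 231, 224 and 259 against 3.02, 6.08 and 0.848 CPM. Drl-2, a Ryk family Wnt receptor, was at 194, 131 and 212 against 5.71, 4.26 and 13.4 CPM. For both, rn+ cells lay below α′/β′ cells, at 458, 436 and 459.9 CPM for dpr17 and 422, 245 and 373 CPM for Drl-2, and above γ cells. Of 12 tested Dpr and DIP genes dpr17 was the only one called, beside 3.61% of all tested genes in either direction. The homophilic adhesion protein Fas3 (50.1, 216 and 176 against 2.35, 8.51 and 2.83 CPM) and the teneurin Ten-m (103, 134 and 110.3 against 11.4, 15.8 and 20.4 CPM) were also called higher. beat-IV, of a family that binds Side proteins in axon guidance, was at 267, 269.8 and 243 against 80.6, 65.4 and 46.4 CPM. Of 8 tested Beat and Side genes it was the only one higher, and beat-IIIb, below, the only one lower. Beside these, 2.07% of all tested genes were higher and 1.54% lower.

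Other leading genes have other known roles. Apoltp, an apolipoprotein of lipid transfer particles, was at 456, 497 and 381 CPM against 9.74, 14 and 15.3 in other α/β cells, with γ cells at 7.91, 3.85 and 8.96 CPM and α′/β′ cells at 158, 44.5 and 105 CPM. Rab23, a small GTPase, was at 61.4, 58.8 and 68.8 CPM and at or under 1.34 CPM in every other KC class and library. CG9008, an uncharacterized gene, was at 228, 203 and 199 CPM (141, 76 and 182 UMIs) against 0, 6 and 1 UMIs in other α/β cells, at least 226-fold higher in the first library by a floor of 3 UMIs. Cbp53E, the fly ortholog of calbindin and a gene named in the study's text, was at 1112, 697 and 1106 CPM against 187, 86.4 and 157, with log2 ratios of 2.57 (2.41 to 2.74), 3.01 (2.76 to 3.26) and 2.81 (2.69 to 2.94). This order repeated in all 3 libraries, and without doublets and cells with other markers the level was 1112, 774 and 1128 CPM. γ cells had 265, 179 and 290.2 CPM and α′/β′ cells 291, 92.6 and 269 CPM. Cells below the KC marker minimum, which include other neurons and glia, had 1279, 321 and 1053 CPM. The gene is Cbp53E (FBgn0004580, chromosome 2R, 16973927 to 16996057, plus strand). The study had already reported it as enriched in its α/β cluster KC_AB2, and as lower in dSERT16 than in dSERT4 flies. Whether that cluster and the rn+ cells are the same was not tested, and the level of the first pool averages over both genotypes.

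Intracellular signaling genes were called in both directions. sty, the Sprouty inhibitor of receptor tyrosine kinases, was at 985, 385 and 781 against 56.7, 28.0 and 136 CPM, and rdgA, a diacylglycerol kinase, at 276, 321 and 745 against 28.2, 57.5 and 49.9 CPM. Both frequenin genes, neuronal calcium sensors, were higher: Frq1 at 422, 347 and 671 against 121, 103 and 162 CPM and Frq2 at 95.4, 128 and 178 against 23.5, 25.2 and 38.2 CPM. norpA, a phospholipase C β, was lower at 37.2, 120.2 and 66.6 against 353, 386 and 373 CPM. Calmodulin (Cam) was 2-fold lower in the first library and not in the others, at 3164, 4479 and 4535 against 6489, 8254 and 6649.6 CPM. Among 15 tested calcium-binding and calcium-signaling genes, 3 were higher and 1 lower, where 2.07% and 1.54% of all tested genes were, with a median log2 ratio of -0.15, -0.33 and -0.14.

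The remaining 6 of the first 15 are known by CG number. CG3726, CG42747, CG11835, CG33543, CG44837 and CG17839 had 105 to 357 CPM in rn+ cells of every library and 0.336 to 39.2 CPM in other α/β cells. CG11835 had 0 UMIs in α′/β′ cells of each library, and CG33543 was higher in γ cells (456, 510.1 and 449 CPM) than in rn+ cells (131, 160.3 and 182 CPM).

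The lower set held guidance and adhesion genes as well. kug (fat2), an atypical cadherin, was at 19.4, 5.34 and 10.9 CPM in rn+ cells (12, 2 and 10 UMIs) against 214, 258 and 193 CPM in other α/β cells, with log2 ratios of -3.46 (-4.42 to -2.65), -5.59 (-8.64 to -3.73) and -4.14 (-5.20 to -3.26). It was near 0 in γ and α′/β′ cells too, at or under 3.40 CPM, so among KC classes its level was high in the other α/β cells alone in these libraries. beat-IIIb was at 8.08, 16.0 and 22.9 against 132, 184 and 190.1 CPM, the adhesion protein kirre at 100.2, 69.4 and 48.0 against 642, 316 and 322 CPM, and klg at 29.1, 82.8 and 95 against 334, 276 and 266 CPM. Sema2b, a secreted semaphorin, was at 16.2, 24.0 and 14.2 against 107, 108 and 112 CPM and higher still in γ cells (390.1, 323 and 354 CPM). Of 30 tested axon guidance and adhesion genes, 4 were higher and 4 lower, where 2.07% and 1.54% of all tested genes were. The median log2 ratio of that list was -0.21, -0.15 and -0.13, and Fas2, the adhesion protein of α/β and γ axons, was at 1255, 820.0 and 1177 against 1358, 869 and 1089 CPM.

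Dh44-R2, a receptor for diuretic hormone 44, was at 4.85, 34.7 and 20.7 CPM (3, 13 and 19 UMIs) against 175, 266 and 267 CPM. In the second library 1 rn+ cell held 9 of the 13 UMIs. Like kug, Dh44-R2 was low in γ and α′/β′ cells, at or under 8.21 CPM. Its paralog Dh44-R1 was at 48.5, 37.4 and 62.2 against 66.5, 81.8 and 89.3 CPM. Most of 40 listed neuropeptide receptors were too sparse, and Dh44-R2 was 1 of 2 tested. GluClalpha, the glutamate-gated chloride channel, was at 428, 369 and 503 against 1784, 1492 and 1772 CPM, and SLO2, a sodium-activated potassium channel, at 234, 211 and 240.2 against 834, 579.6 and 938 CPM. For both channels the rn+ cells were over 2-fold lower in each library.

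Among the other lower genes, wry, an EGF repeat protein, was at 56.6, 53.4 and 97.2 against 763, 559.9 and 711 CPM, and Cow, a secreted Wingless carrier, at 286, 211 and 223 against 1314, 988 and 993 CPM. bru2, an RNA-binding protein, was at 98.6, 98.8 and 91.7 against 540.2, 534 and 415 CPM. Tet, the dioxygenase that acts on methylated bases, was at 64.7, 302 and 139.8 against 1084, 1291 and 1298 CPM. Tet in rn+ cells was over 2-fold higher in the second library than in the others, and it was also high in cells below the KC marker minimum there (579, 1747 and 601 CPM); the part of that RNA was not tested. CG12194, CG6154, CG15312, CG7985 and lncRNA:CR46004 complete the first 15, with 1.62 to 84.1 CPM in rn+ cells against 63.9 to 489 CPM in other α/β cells.

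Of 16 tested mushroom body transcription factors, 1 was higher, br, and 1 was lower, fru, beside 82 (3.61%) of all tested genes in either direction, and the median log2 ratio was 0.02, 0.01 and -0.13. br (broad), an ecdysone-induced BTB zinc finger factor, was at 158, 216 and 75.3 CPM in rn+ cells and at or under 16.5 CPM in each other KC class and library. fru (fruitless), the BTB factor of the sex determination pathway that is strong in γ cells, was at 24.3, 56.1 and 85.2 CPM against 223, 206 and 464 in other α/β cells and 1886, 1551 and 2184 in γ cells. For both, the counting intervals of the summed levels lay apart from those of other α/β cells in every library. Single cells did overlap. A br UMI was seen in 41.0%, 48% and 28.7% of rn+ cells and in 4.48%, 4.16% and 5.55% of other α/β cells. For fru the shares were 5.22%, 18% and 23.5% against 40.5%, 43.0% and 66.4%. pros, the factor of the highest level on that list, was at 11756, 13868 and 16217 against 11566, 14986 and 20638 CPM.

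**Figure D4:**
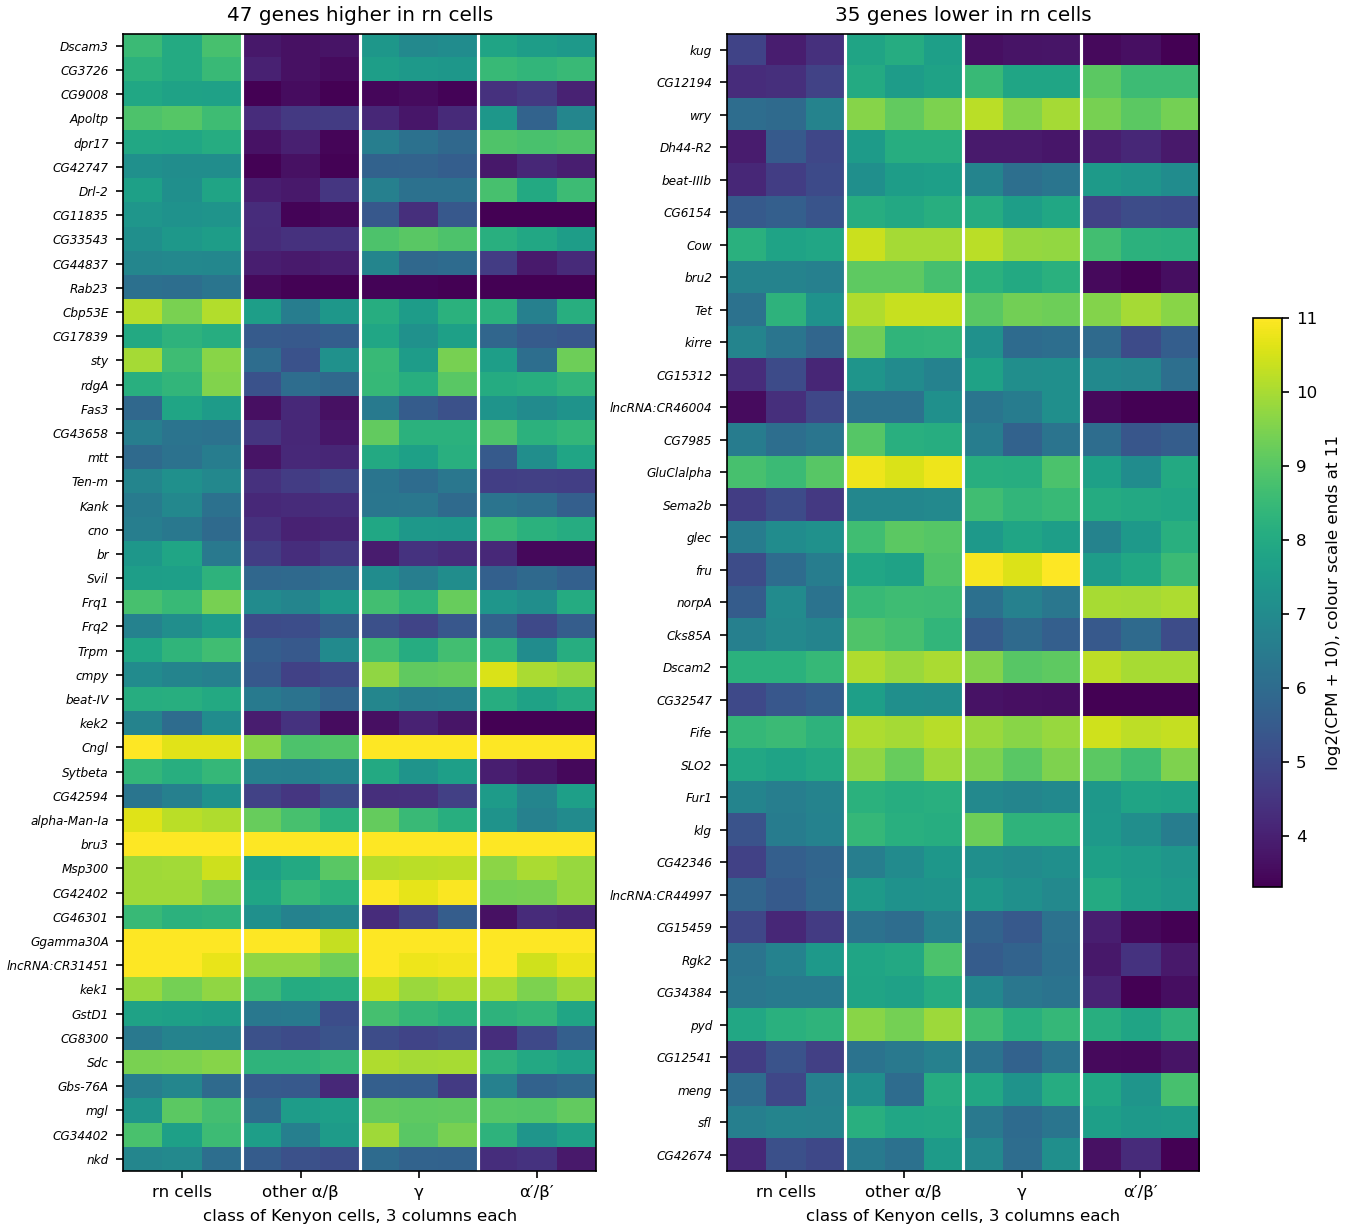
Levels as log2(CPM + 10) (color) of the 47 genes higher (left) and 35 genes lower (right) in rn+ cells, in 4 KC classes with 3 columns each (the first, the second and the third library). Rows run from the greatest to the smallest difference; 24 of the 47 are highest in rn+ cells among the 4 classes in every library, and 16 of the 35 are lowest.

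The same genes were read across all 4 KC classes. Of the 47 higher genes, 24 were highest in rn+ cells among the 4 classes in every library, compared with 211 (9.30%) of all 2269 tested genes. They include Dscam3, Apoltp, Rab23, CG9008, Cbp53E, Frq1, Frq2, Ten-m, sty and br. The other 23, with CG3726, dpr17, Drl-2, CG33543, rdgA and Fas3 among them, had at least 1 library in which γ or α′/β′ cells were higher. Of the 35 lower genes, 16 were lowest in rn+ cells, compared with 204 (8.99%) of all tested genes. Some of these margins were small. Against γ cells, Frq1 was at 422, 347 and 671 CPM in rn+ cells and 398, 306 and 579 in γ cells, and sty at 351, 178 and 678 CPM in γ cells, near the rn+ level in the third library. Only 12 of the 47 were at least 2-fold higher than in each of the other 3 classes in every library, and 11 of the 35 at least 2-fold lower. Being higher or lower than other α/β cells was part of how these genes were picked, so the shares are not a result about the list.

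In whole-profile terms, members against γ cells had 148 of 2321 genes (6.38%) at least 2-fold apart in all libraries, 80 (3.45%) higher and 68 (2.93%) lower. Against α′/β′ cells there were 258 of 2402 (10.7%), 146 (6.08%) higher and 112 (4.66%) lower, beside the 82 of 2269 (3.61%) against other α/β cells. The correlation of log2(CPM + 10) over 2269 genes was 0.916 to 0.919 with other α/β cells, 0.863 to 0.882 with γ cells and 0.809 to 0.819 with α′/β′ cells in each library, across genes of 1 library that share its depth.

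Receptors for monoamines are of interest because the study perturbed serotonin uptake. 5-HT1A, an inhibitory serotonin receptor, was at 1631, 1461 and 1627 CPM in rn+ cells, and 1009, 547 and 1490 UMIs came from 130 of 134, 50 of 50 and 114 of 115 cells. Other α/β cells had 1864, 1409 and 889.8 CPM, and the log2 ratios were -0.19 (-0.29 to -0.10), 0.05 (-0.08 to 0.18) and 0.87 (0.79 to 0.95). The classes were close at day 0, and at day 4 to 6 other α/β cells were lower than at day 0 while rn+ cells were not. 5-HT1B, the other inhibitory receptor, was at 341, 120.2 and 160.5 against 165, 67.8 and 43.5 CPM, with log2 ratios of 1.05 (0.81 to 1.28), 0.83 (0.33 to 1.29) and 1.88 (1.59 to 2.17). It was higher in rn+ cells in each library but did not reach 2-fold on the scale used in 1 of them, and γ cells had more (520.4, 233 and 231 CPM). In both receptors the third library showed the widest gap between the classes. The other receptors were sparse: 5-HT2A had at most 3 UMIs, 5-HT2B at most 4 and 5-HT7 0, 14 and 2 UMIs.

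SerT itself gave 0 UMIs in the rn+ cells of each library, which allows up to 4.85, 8.01 and 3.28 CPM at 3 UMIs. The dopamine receptor Dop1R1 was at 975, 1004 and 920.4 CPM against 882, 769 and 787 in other α/β cells. Dop2R, the inhibitory dopamine receptor, was at 1670.1, 1998 and 2465 against 1309, 1212 and 1862 CPM. DopEcR, which binds dopamine and ecdysteroids, was at 485, 441 and 695 against 746, 596 and 1087 CPM. None of the 3 was called. Octbeta1R, an octopamine receptor, was lower in each library without being called, at 781, 499 and 677 against 1372, 965 and 1017 CPM. Oamb, the octopamine receptor named for the mushroom body, was at 417, 313 and 416 against 581, 428 and 533 CPM. Of 9 tested monoamine receptors none was 2-fold apart in all libraries.

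Genes of fast transmission and excitability were read in the same way, against the 3.61% of all tested genes that were called. No subunit among 7 tested nicotinic acetylcholine receptor genes was called, with nAChRbeta1 at 1500.4, 1485 and 1990.4 against 1378, 1248 and 1876 CPM. Of 12 tested muscarinic, GABA and glutamate receptor genes, mtt, a metabotropic glutamate receptor family member, was higher (53.4, 64.1 and 85.2 against 3.36, 8.51 and 7.63 CPM) and GluClalpha lower. The GABA-A receptor Rdl was at 10991, 7578 and 7418 against 13950.5, 9999.6 and 9122 CPM. Of 15 potassium channel genes only SLO2 was called, and Shab was lower in each library without reaching 2-fold (519, 363 and 535 against 991, 707 and 1029 CPM). SK, a calcium-activated potassium channel named in the study's text, was at 981, 579.6 and 835 against 768, 528 and 835 CPM.

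None of 13 sodium and calcium channel genes, 9 genes of the cAMP learning pathway, 21 synaptic vesicle and active zone genes, 81 ribosomal protein genes or 4 clock genes was 2-fold apart in every library. Their list medians lay between -0.23 and 0.12 on the log2 scale. Nor was any of 13 mitochondrial transcripts, 6 activity-regulated genes, 3 cholinergic genes or 9 heat shock genes, the last with list medians of 0.22, 1.13 and 0.43. rut, the adenylyl cyclase needed for olfactory learning, was at 2461, 1191 and 2224 against 2443, 1289 and 2154 CPM, and dnc, a cAMP phosphodiesterase, at 4398, 3053 and 3817 against 3293, 2317 and 3054 CPM.

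The rn+ cells also varied among themselves. Over 1344 genes at 100 CPM or more in every library, the variance across cells was a median of 1.27, 1.43 and 1.36 times that expected from counting at each cell's depth. It exceeded 3 times in 66, 140 and 82 genes. Genes named here for their spread were chosen after their values were seen. The widest spread belonged to lncRNA:noe, a neural noncoding RNA that ran from 11 to 513, 9 to 2412 and 7 to 845 UMIs per cell, and to mitochondrial transcripts. The 2412 UMIs of lncRNA:noe belonged to the cell with VGlut, and without doublets and cells with other markers the highest cell of that library had 455.

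Next were stress and activity genes. Hsp26, a small heat shock protein, had a ratio of 8.74, 34.6 and 26.3, with no UMI in 39.6%, 62.0% and 54.8% of cells and up to 33, 80 and 85 UMIs in others. Hr38, a nuclear receptor induced by neuronal activity, had 25.3, 6.95 and 15.2, and its highest cell in the second library, with 52 UMIs, was again the cell with VGlut (15 UMIs in the highest cell without it and the other such cells). Its level was 4013, 411 and 2261 CPM, lowest in the second library in rn+ and other α/β cells alike (2294, 212 and 2869.8 CPM). rn itself ran from 2 to 60, 0 to 43 and 0 to 52 UMIs per cell.

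At day 4 to 6 the members differed from both day 0 pools in few genes. Of 2875 genes at 50 CPM or more in at least 1 library, 12 (0.417%) were at least 2-fold higher in the third library than in both others and 34 (1.18%) at least 2-fold lower, 46 (1.6%) in all. In other α/β cells the numbers were 23 (0.838%) and 36 (1.31%) of 2744 genes. For scale, 279 genes (9.70%) were 2-fold apart between the day 0 pools in rn+ cells, and 178 (6.49%) in other α/β cells. Against 1 day 0 pool alone, 115 of the 2875 genes were higher and 63 lower than in the dSERT4/dSERT16 pool. Against the dSERT-TMKO/WT pool the counts were 83 and 179. Over the alternatives that left out no library, the higher count ran from 5 to 51. Without doublets and cells with other markers 14 were higher, 7 of them among the 12, and 30 lower, 25 of them among the 34. The 5 higher genes not called then were CG7637, GlcAT-I, RpS21, Rpb12 and gcl, and the 9 lower ones were CAP, CG33143, CG44422, CG6356, Cys, Nepl5, Nuak1, l(1)G0193 and lovit. With 1 library per group there is no test.

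**Figure D5:**
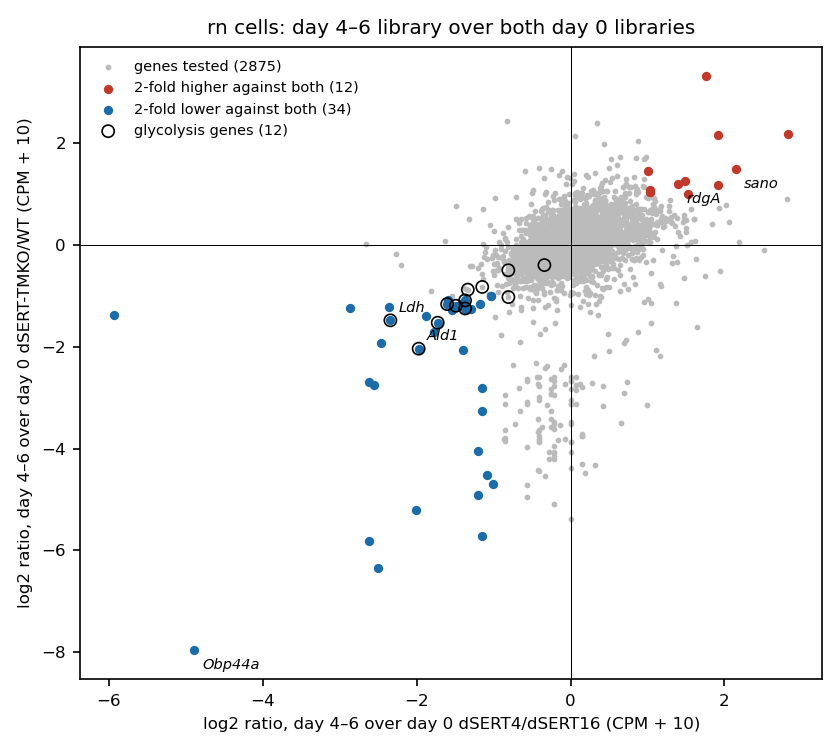
The log2(CPM + 10) ratio of the third library over the dSERT4/dSERT16 pool (x axis) and over the dSERT-TMKO/WT pool (y axis) in rn+ cells, 1 point per gene of 2875. The 12 genes higher against both are red and the 34 lower blue; circles mark 12 glycolysis genes, all below 0 on both axes.

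Some of the lower genes were high in cells outside the KC classes. Obp44a, an odorant-binding protein gene with strong glial expression, was at 320.1, 2762 and 1.09 CPM in rn+ cells and at 22120.3, 32074 and 1451 CPM in cells below the KC marker minimum. Other α/β cells had 515, 3097 and 5.37 CPM, so the pattern went with the library in both classes. In the second library 3 cells held 697 of its 1034 UMIs, and without doublets and cells with other markers its level was 320.1, 1100.1 and 1.12 CPM. nrv2, a sodium pump β subunit used as a glial marker, was at 100.2, 999 and 17.5 CPM (without those cells 100.2, 264 and 17.8), and cells below the minimum had 4964, 10883 and 1098 CPM. CG8369 was at 121, 1875 and 13.1 CPM (without those cells 121, 731 and 13.4). The part of free glial RNA in these differences was not tested. CG9686 was at 58.2, 612 and 1.09 CPM (without those cells 58.2, 208 and 1.12).

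A further group belongs to glycolysis. Ald1, the aldolase, was at 2019, 2113 and 507 CPM in rn+ cells, with log2 ratios of the third library over the first and second of -1.99 (-2.15 to -1.84) and -2.06 (-2.23 to -1.89). Tpi, triose phosphate isomerase, was at 728, 633 and 213 CPM (-1.77 and -1.57). Ldh, lactate dehydrogenase, was at 32, 9 and 2 UMIs, or 51.7, 24.0 and 2.18 CPM, and in other α/β cells it was at or under 1.68 CPM in each library. The day 0 pools lay close to each other in Ald1 and Tpi, and the third library lay below both. A list of 14 glycolysis genes was then drawn up after these values were seen. Of the 12 tested in rn+ cells, 7 were lower and none higher (Ald1, Tpi, Gapdh1, Gapdh2, Pgk, Eno and Ldh), beside 1.18% of all tested genes lower. Ald1, Tpi and Ldh are among the genes that prompted the list. Its tested genes had median log2 ratios of -1.37 and -1.13, beside 0.04 and 0.03 over all tested genes. The list summed to 8360.4, 7465 and 3029.8 CPM in rn+ cells. It summed to 6343, 6981 and 2434 CPM in other α/β cells, 5486, 6267 and 2930 in γ cells and 6139, 5911 and 3124 in α′/β′ cells. The lower sum was thus seen in each of the 4 classes.

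Other genes ranked in the first 12 lower were CG3009, CG31324, CG44422, CG3793 and lovit. CG44422 and lovit rest on the mixed cells of the second library, and without them neither was 2-fold lower at day 4 to 6 than there. CG44422 stood at 189, 128 and 26.2 CPM in rn+ cells and 52.0, 34.4 and 5.09 CPM in other α/β cells, and without the mixed cells it was at 189, 52.7 and 26.8 CPM. lovit, a vesicular transporter known from histaminergic photoreceptors, was at 163, 115 and 37.1 CPM (without those cells 163, 62.6 and 37.9, other α/β 143, 49.0 and 44.2). CG33143, a gene named in the study's text, was also lower, at 599.8, 16.0 and 0 CPM, a call that without the mixed cells was lost in the comparison with the second library. It was seen in 89 of 134 rn+ cells of the first library, 2 of 50 of the second and 0 of 115 of the third, and other α/β cells had 716, 3.35 and 1.84 CPM. The study called CG33143 different between dSERT16 and dSERT4 flies in several KC types, and the level of the first pool averages over both genotypes.

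Among the 12 higher genes, rdgA was at 276, 321 and 745 CPM in rn+ cells, with log2 ratios of 1.43 (1.19 to 1.68) and 1.22 (0.93 to 1.51), while other α/β cells were at 28.2, 57.5 and 49.9 CPM. jeb, the secreted ligand of the Alk receptor, was at 202, 347 and 793 CPM (1.97 and 1.19) and at 183, 307 and 714 CPM in other α/β cells. The integrin α subunit mew was at 14.6, 10.7 and 83.0 CPM from 9, 4 and 76 UMIs, against 2.35, 5.47 and 11.7 CPM. Of 81 tested ribosomal protein genes only RpS21 was called, beside 1.6% of all tested genes. It was at 276, 401 and 816 CPM and was not called without the mixed cells. The other 8, CG32581, lncRNA:CR44832, sano, CG5059, GlcAT-I, CG7637, gcl and Rpb12, had at most 27 UMIs in the rn+ cells of either day 0 pool. Scaled by TMM or DESeq2 size factors, 7 of the 12 remained.

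Of the genes named in the study's text, LysRS, a lysyl-tRNA synthetase, was at 109.9, 160.3 and 199 CPM (other α/β 133, 182 and 249), Ddc, the dopa decarboxylase, at 186, 195 and 159 CPM (other α/β 331, 170.3 and 213), and Lgr1, a gene of the α/β sum, at 191, 131 and 203 CPM (other α/β 326, 242 and 351). prom, a pentaspan membrane protein, gave 5, 0 and 0 UMIs in rn+ cells, so it was seen in the dSERT4/dSERT16 pool and not in the others at this depth. The study considered the rise of prom in dSERT16 flies a likely artifact of the deleted DNA.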

How the data were processed

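Brains of 3 pools of Drosophila melanogaster were dissected without optic lobes, dissociated and sorted for nuclear GFP, and 3′ single-cell libraries were prepared on the 10x Genomics platform. The authors aligned the reads with Cell Ranger 7.0.0 and deposited, for each library, a filtered matrix of UMI counts per gene and barcode (16037 barcodes in all), which were used as raw counts. The 4 deposited tables of the study's own comparisons (log2 fold changes, p-values and adjusted p-values per gene and KC cluster) were not used. The submitters' processing notes also name Seurat.

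Cells were classed by the sums given in the report, and the members, gene lists and comparisons were chosen with earlier results of these data known. UMI counts were summed per class and library and scaled to CPM. A gene was called when its log2(CPM + 10) differed by at least 2-fold in the same direction in all 3 libraries (at least 50 CPM in either class in each), or at day 4 to 6 against both day 0 libraries (at least 50 CPM in 1 library or more). Each group is 1 library, so no test was run. Levels have exact Poisson intervals, shares Clopper-Pearson intervals and ratios exact conditional intervals, all at 95%. 1 UMI in rn+ cells equals 1.62, 2.67 and 1.09 CPM in the 3 libraries.

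Named genes were the rule genes, the first 15 higher and 15 lower by the smallest ratio over libraries, the first 12 in each direction at day 4 to 6, up to 6 of each of 34 gene lists by level together with those called, and genes named in the study's text. The receptors 5-HT2A, 5-HT2B, 5-HT7 and Dh44-R1, Dscam1, repo, the spread genes and the glycolysis list were chosen after values were seen. Doublets called by Scrublet (scanpy 1.11.5) were kept in the main values and removed in an alternative. Further alternatives were other UMI and marker minimums, cells thinned to 1000 UMIs, TMM (edgeR 4.0.16) and DESeq2 1.42.0 size factors, cells weighted equally, pseudocounts of 1 and 25 CPM, minimums of 20 and 100 CPM or none, and leaving out each library. Removing cells with markers of glia or other transmitters and applying the rule to thinned cells were added after seeing the data. The steps were tested on simulated counts. Python 3.11.15 and R 4.3.3 were used. Positions are from the Ensembl annotation of BDGP6, the same assembly as dm6.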

Additional observations from a re-analysis of the deposited data

Results flagged for a closer look

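Cells outside the α/β class also carried UMIs of the marker genes, counted here as the sum over rn, CNMaR and CG43795. The α′/β′ cells held no UMIs of CG43795, so their sums came from the other genes. With 2 exceptions the lower end of the interval of each share lay above the limit that a count of 0 allows. The γ cells of the third library and the KCs outside the 3 classes of the second were those exceptions. At least 2 UMIs of rn, CNMaR and CG43795 were seen in 47 of 162 (29.0%, exact 95% interval 22.2 to 36.7), 35 of 105 (33.3%, 24.4 to 43.2) and 52 of 114 (45.6%, 36.3 to 55.2) α′/β′ cells of the 3 libraries. In γ cells the numbers were 8 of 1885 (0.424%) in the first library and 9 of 1575 (0.571%) in the second, and in the third 4 of 1499 (0.267%), with rn at 0.498 CPM. KCs outside the 3 classes gave 13 of 83 (15.7%) in the first library and 8 of 42 (19.0%) in the third, and in the second 4 of 51 (7.84%). Cells below the KC marker minimum gave 27 of 253 (10.7%), 181 of 6515 (2.78%) and 13 of 55 (23.6%), with rn at 76.9, 20.6 and 59.9 CPM.

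sano, a planar polarity gene, was higher at day 4 to 6 than in both day 0 libraries in rn+ cells, at 4.85, 13.4 and 55.7 CPM (3, 5 and 51 UMIs), and lower in other α/β cells, at 1.01, 2.74 and 0.848 CPM. The smaller log2(CPM + 10) ratio in rn+ cells was 1.49. The difference between the classes was not tested, and the other α/β level was near that of single UMIs.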

How the results depend on the processing

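No paired analysis was possible because no result comes from a test. The rn+ and other α/β cells were compared as ratios within each of the 3 libraries, which hold both, and each pool is 1 library. The counts of genes that set rn+ cells apart from other α/β cells stayed within 1.5 times of 47 and 35 under every alternative, with 55 to 61 higher and 38 to 47 lower when a library was left out. The share of α/β cells depended on depth, and was 10.5%, 5.02% and 5.75% with cells thinned to 1000 UMIs, where fewer cells reach the minimums. The counts at day 4 to 6 were less stable. Of the 12 higher genes, 7 were called with DESeq2 size factors, TMM factors or a pseudocount of 25 CPM, and 5 with a minimum of 100 CPM. The count was 22 with a pseudocount of 1 CPM, 23 with a minimum of 20 CPM, 29 with none and 51 with the rule applied to thinned cells (8 of the 12 among them). The 34 lower genes became 94 with a pseudocount of 1 CPM and 20 with 25 CPM. Leaving out a day 0 library gave 80 to 106 higher and 56 to 176 lower: 106 and 56 without the dSERT-TMKO/WT pool, 80 and 176 without the dSERT4/dSERT16 pool. By construction fewer libraries, a lower minimum and a smaller pseudocount let more genes pass; the cause of the other shifts was not tested. CG7637 reversed to -0.041 on the log2 scale with the rule applied to thinned cells. For named genes, 859 values under the alternatives moved by less than the spread between libraries and 27 by more. Depth limits the sparse genes most: in the second library 50 cells held 374392 UMIs, and 3 UMIs equal 8.01 CPM.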
